A study of Mus musculus with 11 samples.

Results

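Broad domains of histone H3 dimethylated at lysine 79 (H3K79me2) were described in neonatal mouse cardiomyocytes and followed into adult cardiomyocytes and back to mouse embryonic stem (mES) cells. A domain was any neonatal H3K79me2 island on chromosomes 1 to 19 that was 20000 bp or wider and had a score under 0.1 per bp. An island is an enriched stretch that the peak caller SICER built from windows of fixed size, and its score is the authors' own value. The rule kept 656 of 17899 neonatal islands, of which 17697 lay on chromosomes 1 to 19. The domains were thus selected on the width and score of neonatal H3K79me2 islands, so their width and neonatal signal are descriptions and support nothing else.

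The series mapped H3K79me2, H3K4me3, H3K27me3 and H3K9me3 by chromatin immunoprecipitation and sequencing. The adult cells (CMa) came from the left ventricle at 2 months of age, and the neonatal cells (CMp) were primary cardiomyocytes of age 1 day with no heart region named, so age and heart region cannot be told apart. No strain, sex or treatment is named, and whether animals were pooled is not stated. Each mark was precipitated with 1 antibody in 1 library per stage, from chromatin of about 300 bp amplified over 15 PCR cycles. The mES lists were called by the authors on libraries of other studies and are no samples of the series, so study and cell type cannot be told apart in any comparison with them. No difference below has a replicate check, domains of 1 library are not replicates, and all intervals are 95% Wilson or exact binomial intervals for counting error alone. No molecular identifiers are named for the libraries, so reads that are PCR copies of 1 fragment are not independent and even those intervals can be too narrow. All positions are on the mouse build mm9 as deposited, with the end base included. No mm9 annotation or sequence was used here, so no gene is named at a domain and the cell type was not checked against marker genes.

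H3K79me2 is placed by the methyltransferase DOT1L, which travels with the transcription machinery, and it lies along the early part of the bodies of transcribed genes. H3K4me3 marks active and poised promoters. H3K27me3 is laid down by Polycomb repressive complex enzymes at silent developmental genes, and H3K9me3 marks heterochromatin. A gene with H3K79me2 therefore usually carries H3K4me3 at the promoter end of the H3K79me2 stretch.

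The 656 domains made up 3.707% of the neonatal islands on these chromosomes but 17.85% of their length, 20.22 of 113.3 Mb. The median width was 26200 bp, with a middle spread from 22400 to 33800 bp. Many were close to the limit, with 286 under 25000 bp, 95 of 40000 bp or more and 28 of 60000 bp or more. At the limit itself, 12 islands were 20000 bp wide and came in, and 15 islands were 19800 bp wide and stayed out. The score per kb had a median of 21.86 and ranged between 13.63 and 43.32, against a median of 19.01 in the 2031 islands of 10000 to under 20000 bp. The score ceiling removed 1 wide island, chr9:3015200-3038599, with 715 per kb. Another wide island, chrX:11633400-11656799, lay outside the chromosomes of the rule. The share of islands that were domains lay between 2.36% on chromosome 19 and 5.42% on chromosome 8. In 206 domains another domain lay within 100000 bp, and 30 pairs of neighbours were parted by no more than 1000 bp, so some neighbours nearly touch.

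In adult cells H3K79me2 was found again over most of these stretches, mostly in more than 1 island. All 656 domains met at least 1 adult H3K79me2 island, and adult islands covered a median of 82.0% of the domain length, with a middle spread of 68.1 to 90.1%. Adult islands covered at least 50% of the length in 601 domains (91.6%, interval 89.2 to 93.5), against 75.1% of all neonatal islands. In the islands of 10000 to under 20000 bp the share was 83.5% (81.8 to 85.1). The adult list is much the longer of the 2, with 60348 islands over 260.7 Mb against 17697 neonatal islands over 113.3 Mb. When the adult list was shortened to the same number of islands by score, 70.3% of the domains were covered to 50% or more, and when it was shortened to the neonatal length, 60.7% were. No adult island was then found at 30 domains with the equal number and at 75 domains with the equal length.

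The adult cover lay in several islands, whereas by the rule a domain is a single neonatal one. A domain met a median of 4 adult islands and at most 16, and 218 domains met 5 or more. Per length the domains met 13.0 adult islands per 100 kb, the islands of 10000 to under 20000 bp 16.4 and all other neonatal islands 22.6. An island crossing a border counts whole in these rates, which raises them in narrower stretches. Only 1 adult island was met by 36 domains, and 18 domains were wholly covered. The longest unbroken adult stretch inside a domain had a median of 10600 bp. Adult islands that were themselves 20000 bp or wider touched 160 domains (24.4%), and 163 of the 573 such adult islands (28.4%) touched a domain. In mES cells the corresponding values were 279 domains (42.5%) and 273 of 735 islands (37.1%). Both an adult and an mES island of that width touched 72 domains, and neither touched 289. Of the 3 lists, then, 289 of the stretches reached 20000 bp in the neonatal one alone, and their adult H3K79me2 was in shorter islands. The cover did not end at the neonatal border. Adult islands ran past at least 1 end in 534 domains (81.4%) and past both in 214, by a median of 3000 bp.

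**Figure D1:**
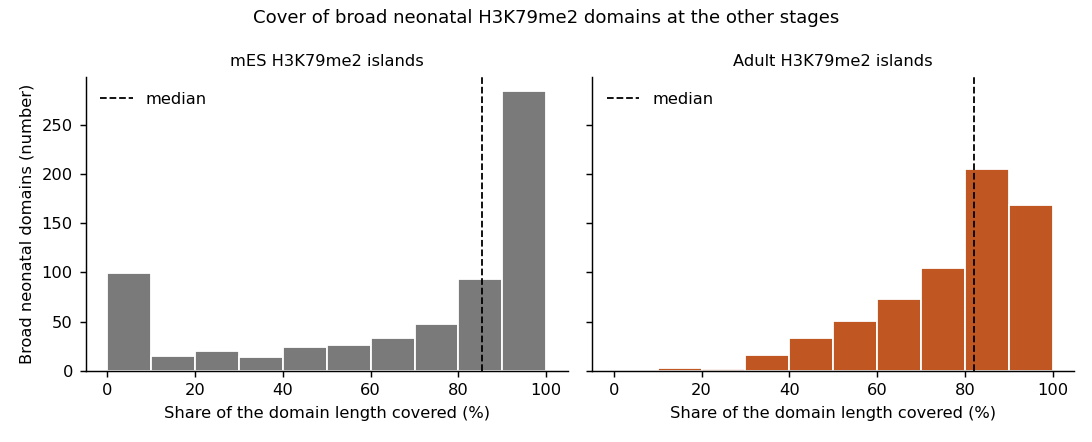
Number of broad neonatal domains (vertical axis) by the share of their length covered by H3K79me2 islands (horizontal axis, %) of mES cells (left) and adult cells (right), with the median dashed. The mES panel has a heap at each side, with 80 domains at 0 and 284 at 90% or more, while the adult panel rises to a single heap with a median of 82.0%.

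The cover had no steady trend with width. In the 171 narrowest domains, between 20000 and 22400 bp, the median adult cover was 81.4%. In the 163 widest, between 34000 and 144000 bp, it was 85.1%, in a median of 5 islands against 3. The lowest median, 76.3%, was in the 163 domains between 26400 and 33800 bp. The mES cover had medians of 84.9% in the narrowest and 86.4% in the widest of these.

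The widest domain, chr8:125421400-125565399, spanned 144000 bp. Adult cells had 16 islands over 81.8% of it, and mES cells had 1 island over all of it. The table region around it held 2799 adult and 3233 neonatal H3K79me2 reads. The next widest, chr3:27483600-27608799, met several islands at both other stages, with 12 adult islands over 87.5% and 19 mES islands over 64.7% of it. The domain chr12:72931400-73036799 was covered to 88.4% in adult cells and to 40.6% in mES cells.

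The domain chr8:11267400-11362799 differed from the other 7 in its mES state. There mES cells had H3K79me2 over 12.8% and H3K27me3 over 64.2% of the length, and neither cardiomyocyte stage had an H3K27me3 island. Adult H3K79me2 covered 95.6% of it in 5 islands, with 2509 adult and 2334 neonatal reads. The other 7 of the 8 widest had no mES H3K27me3 island. In 4 of them, chr4:130219600-130324999, chr8:34937400-35039799, chr16:94792400-94884999 and chr7:119823400-119903799, mES cover was at least 95.7% in at most 5 islands, while adult cover lay between 73.2% and 90% in 9 to 13 islands.

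**Figure D2:**
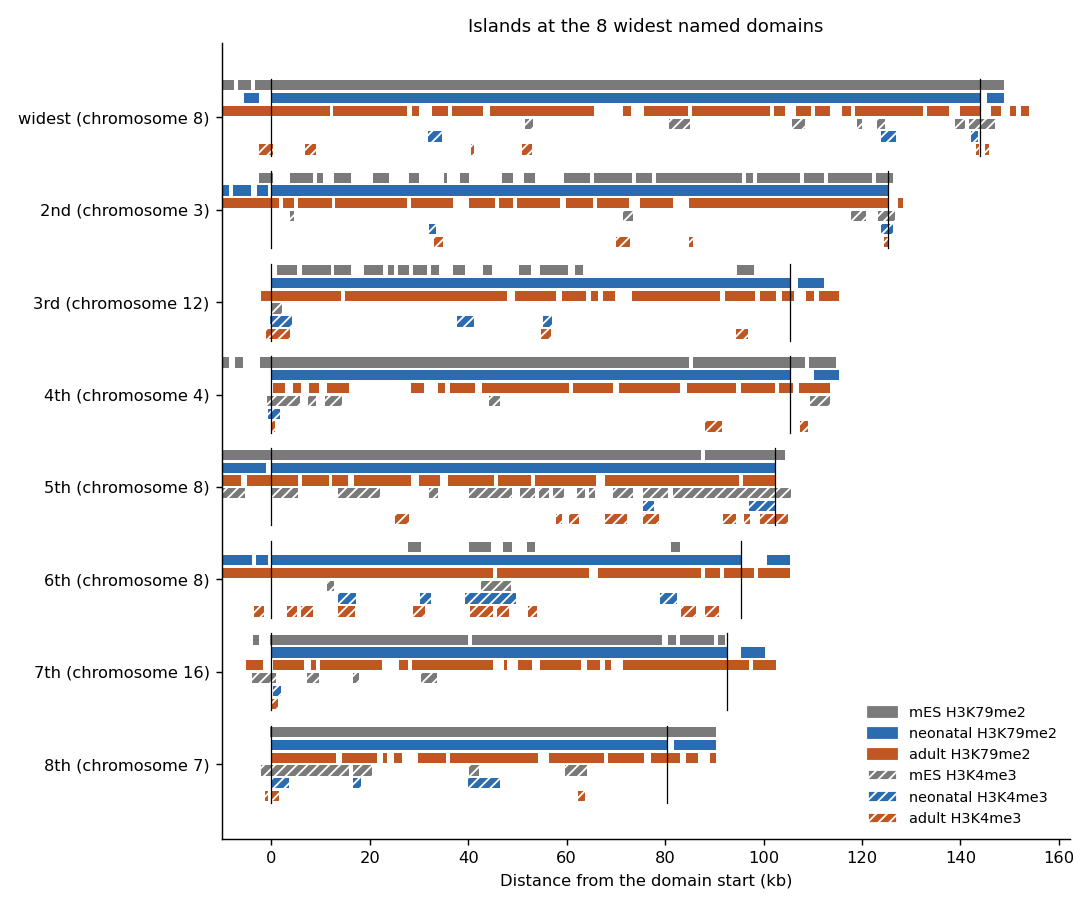
Islands over the 8 widest domains, drawn by distance from the domain start in kb. Plain bars are H3K79me2 and hatched bars H3K4me3, from top to bottom in mES, neonatal and adult cells, and black lines mark the domain borders. Adult H3K79me2 runs in 5 to 16 pieces over each domain and often past a border.

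A small set kept little of its cover. In 55 domains adult islands covered under 50% of the length, and their median width of 24000 bp was near that of all domains. The lowest was chr2:128234800-128254999, where 1 adult island covered 5.94%. The table region there held 91 adult and 237 neonatal reads. Adult cover was 14.4% at chr11:106757400-106778199, 18.1% at chr2:27749800-27781799, 18.8% at chr2:14765600-14785799, 22.9% at chr14:35266800-35299999 and 26.8% at chr4:132686600-132717199. These domains did not share an mES state. Islands of mES cells covered 85.1% of chr2:128234800-128254999, 91.6% of chr14:35266800-35299999 and 94.1% of chr4:132686600-132717199, but none of chr2:14765600-14785799. At chr4:132686600-132717199 the reads were near equal, 927 adult and 960 neonatal, but the table region of 74400 bp is much wider than the domain of 30600 bp.

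H3K4me3, the promoter mark, was present in most domains, at few places in each. A neonatal H3K4me3 island touched 503 of the 656 domains (76.7%, 73.3 to 79.8), against 41.6% of all neonatal H3K79me2 islands. The adult H3K4me3 list touched 533 (81.2%, 78.1 to 84.1), against 42.9%, and the mES list 540 (82.3%, 79.2 to 85.0), against 45.4%. A wider stretch has more room for an island, and per length the order turned round. The domains met 3.73 neonatal H3K4me3 islands per 100 kb, the islands of 10000 to under 20000 bp 5.47, and all other neonatal H3K79me2 islands 7.81. Islands crossing a border count whole in these rates, which raises them in narrower stretches. By length, neonatal H3K4me3 islands covered 10.8%, 14.2% and 15.7% of these classes. One neonatal island was found in 324 domains, 2 in 125, 3 in 40 and 4 or more in 14. The most, 6, lay in chr1:74055600-74115799. Both cardiomyocyte stages had H3K4me3 in 472 domains, adult cells alone in 61, neonatal cells alone in 31 and neither in 92.

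Where H3K4me3 lay in the domain, it lay mostly near an end. Of 679 neonatal H3K4me3 islands with their midpoint inside a domain, 464 (68.3%, 64.7 to 71.7) fell in the outer 20% at one end or the other, where an even spread would put 40%. The outer 10% at each end held 53.6%, and the middle 20% of the length held 10.9%. The same zones held 59.7% (56.4 to 63.0) of the adult islands and 49.2% (46.0 to 52.3) of the mES islands. The islands of 10000 to under 20000 bp gave 70.6% (68.0 to 73.1) with neonatal H3K4me3 in the same zones, 65.4% (62.8 to 67.9) with adult and 58.2% (55.6 to 60.8) with mES H3K4me3. Within 5% of an end lay 36.2% of the neonatal islands in the domains and 20.9% of those in the narrower islands. The zones are shares of the length, so they are wider in bp in the domains. By domain, an island that touched it with a midpoint past the border was counted to that end. Neonatal H3K4me3 was then at 1 end in 421 domains, at both ends in 42, in the middle only in 40 and absent in 153. Taking the highest-scoring neonatal island of each domain alone put 83.6% near an end.

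**Figure D3:**
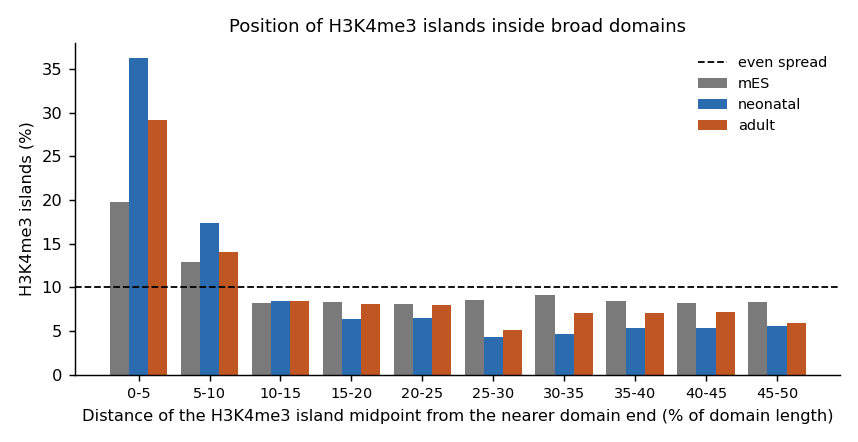
Share of H3K4me3 islands (vertical axis, %) by the distance of their midpoint from the nearer end of the broad domain (horizontal axis, % of domain length), for mES, neonatal and adult islands, with an even spread dashed. All 3 stages peak within 5% of an end, the neonatal islands most, and the mES islands are nearly level beyond 10%.

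The H3K4me3 islands inside domains were in part shared between the stages. Of 753 neonatal H3K4me3 islands in domains, 76.9% met an adult H3K4me3 island, against 89.5% of 6882 in the other neonatal H3K79me2 islands. Of 963 adult islands in domains, 61.4% met a neonatal one, against 82.7% of 7335. This is a comparison of lists of 1 library each and has no test.

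In 294 domains exactly 1 neonatal H3K4me3 island was inside and it lay at an end, so the domain could be read from its H3K4me3 end to its far end. Each domain was divided into 10 equal bins along this axis, and the mES cover declined along it. In mES cells the mean cover was 82.3% in the bin at the H3K4me3 end and 59.8% in the bin at the far end. The 5 bins towards H3K4me3 were covered more in 171 domains, the 5 far bins in 28, and 95 were equal. Adult cover was near level, with 77.2% in the bin at the H3K4me3 end and 74.3% in the bin at the far end. For adult islands, 143 domains were covered more towards H3K4me3, 143 more towards the far end, and 8 were equal. With the adult list shortened to the neonatal number, those counts were 128, 139 and 27.

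The ends were less even. Adult islands ran past the far end in 200 of the 294 domains (68.0%) and past the H3K4me3 end in 93 (31.6%). In mES cells the order of the counts was the other way, with islands past the far end in 132 (44.9%) and past the H3K4me3 end in 201 (68.4%). By distance the far end was passed further at both stages. Where mES islands ran past, the medians were 4200 bp at the far end and 1000 bp at the H3K4me3 end. In adult cells they were 3400 and 1200 bp. With the shortened adult list the counts were 152 (51.7%) past the far end and 59 (20.1%) past the H3K4me3 end. When 257 domains were oriented by a single adult H3K4me3 island instead, adult islands ran past the far end in 171 and past the H3K4me3 end in 80. The 910 islands of 10000 to under 20000 bp with 1 end-placed H3K4me3 island gave 62.9% past the far end and 32.7% past the H3K4me3 end in adult cells, and 43.4% and 65.7% in mES cells. Narrower islands thus had the same order at both stages. The neonatal borders that define the ends came from the library that chose the domains.

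**Figure D4:**
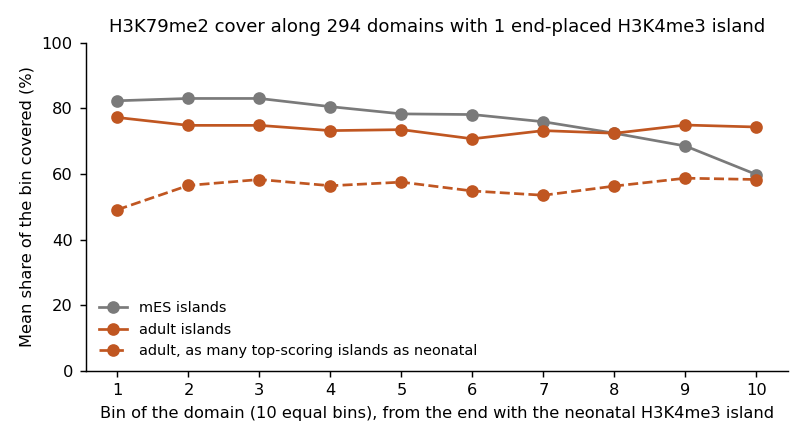
Mean share of each of 10 equal bins of the domain covered by H3K79me2 islands (vertical axis, %) along 294 domains, read from the end with the neonatal H3K4me3 island (bin 1) to the far end (bin 10). The mES line falls to 59.8% at the far end, the adult line stays between 70.7% and 77.2%, and the dashed line of the shortened adult list is lower but has no decline.

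A domain of the neonatal heart cells was in most cases an H3K79me2 stretch in mES cells too, and a minority met no mES island. Islands of mES cells covered at least 50% of 484 domains (73.8%, 70.3 to 77.0), against 55.4% of all neonatal islands and 69.6% (67.6 to 71.6) of those of 10000 to under 20000 bp. The median cover was 85.3%. The spread had a heap at each side: 284 domains were covered to 90% or more, 128 of them wholly, and 80 domains met no mES island. A further 92 were covered to under 50% and 200 from 50% to under 90%. Adult cover differed little over these classes, with a median of 74.3% where mES cells had no island and 83.1% where mES cover was 90% or more.

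The Polycomb mark of mES cells was found over part of the domains, and most of all where mES H3K79me2 was absent or partial. An mES H3K27me3 island touched 157 domains (23.9%), against 11.7% of all neonatal islands. By length, such islands covered 6.24% of the domains and 6.65% of all other neonatal islands. Per 100 kb the domains met 1.28 of them and all other neonatal islands 2.25. An island crossing a border counts whole in this rate, which raises it in narrow stretches. An mES H3K27me3 island touched 45 of the 80 domains with no mES H3K79me2 island (56.2%). It touched 47 of the 92 covered to under 50%, and 23 of the 284 covered to 90% or more (8.10%). In 13 of the 80 it covered at least 50% of the length. Of the 157, 10 had a neonatal (6.37%) and 15 an adult (9.55%) H3K27me3 island. The like shares among all neonatal islands with mES H3K27me3 were not counted, so no loss is read from this. In all, H3K27me3 islands touched 31 domains in adult cells (4.73%, against 2.75% of all neonatal islands) and 18 in neonatal cells (2.74%, against 2.24%). The mES H3K4me3 mark was found in 39 of the 80 domains with no mES H3K79me2 (48.8%) and in 269 of the 284 with cover of 90% or more (94.7%). Neonatal H3K4me3 was found in 45 (56.2%) and 241 (84.9%) of those classes.

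The widest domain with no mES H3K79me2 island was chr14:63817200-63891599, of 74400 bp. Islands of mES cells with H3K27me3 covered 50.3% of it, and H3K4me3 formed 5 islands at each of the 3 stages. Adult H3K79me2 covered 66.7% in 8 islands, with 856 adult and 2139 neonatal reads. The next in width, chr6:118845400-118916199 and chr6:118923000-118980599, are neighbours. They had mES H3K27me3 over 3.67% and 0.0% of their length, so not every such domain was a Polycomb stretch in mES cells. Adult cover was 89.3% and 72.6%. The domain chr1:167593800-167640399, had mES H3K27me3 over 37.8% and adult H3K79me2 over 89.3%.

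H3K9me3 islands touched 29 domains in adult cells (4.42%, against 1.93% of all neonatal islands), 53 in neonatal cells (8.08%, against 3.09%) and 103 in mES cells (15.7%, against 3.97%). Per 100 kb the domains met 0.148 adult, 0.287 neonatal and 0.623 mES islands, against 0.343, 0.537 and 0.676 in all other neonatal islands. Islands crossing a border count whole in these rates, which raises them in narrow stretches. By length, H3K9me3 islands covered 0.301% of the domains in adult, 0.776% in neonatal and 1.42% in mES cells. In all other neonatal islands those shares were 0.559%, 1.0% and 1.28%, so the mES order turned round. In no domain did H3K9me3 at any of the stages cover 50% of the length.

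Domains without neonatal H3K4me3 included wide ones. At chr9:121237400-121315599, 78200 bp wide, there was no neonatal H3K4me3 island but 6 in adult and 6 in mES cells, and adult H3K79me2 covered 90.3%. At chr19:53764600-53839799, 75200 bp wide, adult cells had 1 H3K4me3 island and 33.5% H3K79me2 cover, with 630 adult and 1207 neonatal H3K79me2 reads. At chr5:119045400-119109399 neither cardiomyocyte stage had H3K4me3, and H3K79me2 covered 96.2% in adult cells and all of it in mES cells. The domain chr5:145662200-145725999, had 1 adult H3K4me3 island and 76.5% adult H3K79me2 cover. Of the 515 domains in the authors' deposited H3K4me3 table, 156 stood at the floor of 1 neonatal read, and 68 of those had a neonatal H3K4me3 island, so a floor value does not mean that the mark was missing.

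The reads at the domains came from the authors' deposited tables, which list only regions that differed between 2 libraries at a false discovery rate under 0.01. The H3K79me2 table listed 626 of the 656 domains in 586 regions, and 75 domains shared 35 of those regions. Each domain lay wholly in its region, which had a median of 1.24 times its width. After the authors' library factors, the authors' deposited table had 606 of the 626 lower and 20 higher in adult cells. Of all 656 domains, listed or not, these are 92.4% and 3.05%, against 43.8% lower and 15.5% higher of all neonatal islands. Among listed regions alone, the authors' deposited table had 96.8% of the domains and 73.8% of the neonatal islands lower in adult cells. The median difference of adult minus neonatal in the authors' deposited table was -1.04 on the log2 scale, with a middle spread between -1.33 and -0.67. The neonatal library chose the domains and is one side of this difference, so nothing is read from the count.

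The direction also rests on the factors. They multiply adult reads by 0.7074 and neonatal reads by 1.414, a shift of -0.999 on the log2 scale, which is nearly the whole median. Without them, adult cells had more reads at 297 domains and fewer at 329, with medians of 578.5 adult and 585 neonatal reads. In the listed islands of 10000 to under 20000 bp, adult reads were more at 949 and fewer at 765. In all other listed neonatal islands those counts were 6375 and 3420. The domains were chosen by neonatal width, so nothing is read from this contrast either. Per kb of region the medians were 15.2 adult and 15.0 neonatal reads. A lower value may be a smaller share of cells with the mark or less of it per cell, and these cannot be told apart in bulk chromatin.

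**Figure D5:**
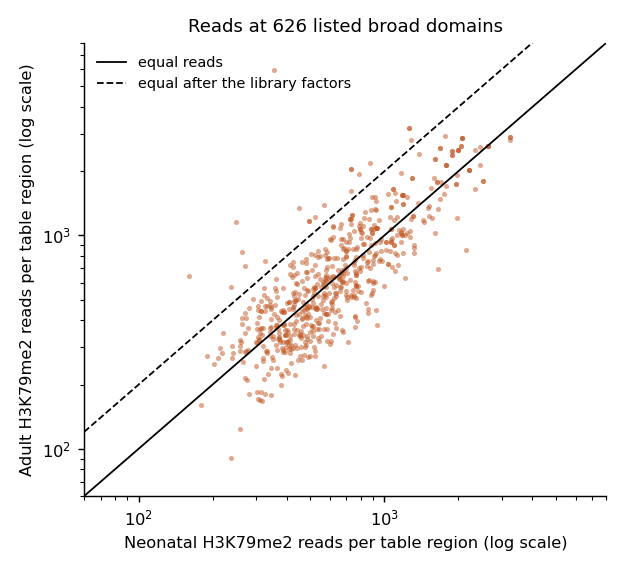
Adult against neonatal H3K79me2 reads in the table regions of the 626 listed domains, both axes on a log scale, with equal reads as a solid line and equality after the authors' library factors dashed. The points lie around the solid line, 297 above and 329 below it, and nearly all lie under the dashed line.

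The domains differed among themselves in the same order by reads and by cover. Where adult islands covered under 50% of the domain, the median of adult over neonatal reads was 0.626 and the median table difference -1.67, in 55 domains listed in the authors' deposited table. Where they covered 50% to under 90%, those medians were 0.942 and -1.09 in 420 listed domains of the authors' deposited table. Where they covered 90% or more, they were 1.21 and -0.72 in 151 listed domains of the authors' deposited table. Cover and reads come from the same adult library, so this is a description and no second line of evidence.

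By the authors' deposited table, 9 of the 656 domains were 4-fold or more lower in adult cells, against 363 of 17697 neonatal islands (2.05%). Just 1 of the 656 was 4-fold or more higher, against 460 of 17697 (2.60%). Both are smaller shares than in all neonatal islands. Without the library factors no domain was 4-fold lower and 3 were 4-fold or more higher, so these counts too rest on the scaling. Of the 9, mES islands covered at most 1.57% in 5 and at least 85.1% in 4. The lowest was chr2:128234800-128254999, described above, at -2.38 in the authors' deposited table, which is 5.21-fold lower in adult cells (exact interval 4.07 to 6.7). Next came chr14:63817200-63891599 at -2.32, chr2:163190200-163226599 at -2.29 and chr4:57578000-57654399 at -2.24 in the same authors' deposited table. At chr2:163190200-163226599 there were 379 adult and 929 neonatal reads, and mES cells had no H3K79me2 island but H3K27me3 over 41.8%. At chr4:57578000-57654399 there were 697 adult and 1644 neonatal reads, with adult cover of 49.7% in 13 pieces and mES cover of 1.57%. The domain chr11:20101400-20122999, at -2.21 in the authors' deposited table, had mES H3K79me2 over all of it. There 245 adult and 567 neonatal reads were counted, and adult cover was 38.0%. At chr13:12162200-12198599 there were 318 adult and 710 neonatal reads, with no mES H3K79me2 and an adult cover of 36.8%.

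The largest gain was at chr4:142728800-142751599, with 5973 adult and 357 neonatal reads and a difference of 3.07 in the authors' deposited table, which is 8.37-fold higher (exact interval 7.52 to 9.34). At this domain adult reads far outnumbered neonatal reads in every mark and not in H3K79me2 alone. Its table region of 24000 bp held 2199 adult and 3 neonatal H3K4me3 reads, 2018 adult and 1 neonatal H3K27me3 reads, and 670 adult and 11 neonatal H3K9me3 reads. Its H3K79me2 came to 249 adult and 14.9 neonatal reads per kb. The adult island over it had a score of 26.9 per kb, near the median of 23.1 for the densest adult island at each domain, and no adult H3K27me3 or H3K9me3 island lay there. The adult reads of the tables and the adult islands thus differ at this place, and the reason was not tested.

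The other gains were smaller. At chr17:28145800-28175599 there were 1156 adult and 250 neonatal reads, a difference of 1.21 in the authors' deposited table, with 96.0% adult and 20.1% mES cover. At chr7:139944200-139965399 there were 645 adult and 160 neonatal reads, a difference of 1.01 in the authors' deposited table, with no mES island. At chr8:124806600-124832599 there were 1350 adult and 448 neonatal reads, and mES H3K27me3 covered 74.6%. At chr2:181095600-181116599 there were 834 adult and 263 neonatal reads with an adult cover of 46.7% alone, in a table region of 52200 bp around a domain of 21000 bp. At chr11:117131800-117165999, with 2039 adult and 732 neonatal reads, the region was 94200 bp wide. In these last 2 the region reaches well beyond the domain, and where in it the reads lie is not known.

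H3K4me3 was higher in adult cells in the regions of most listed domains. Of 515 domains in the authors' deposited H3K4me3 table, 449 were higher and 66 lower in adult cells, which is 68.4% and 10.1% of all 656 domains, against 33.2% and 15.0% of all neonatal islands, with a median difference of 1.81 on the log2 scale. Counting listed regions alone, the authors' deposited table had 87.2% of the domains and 68.9% of the neonatal islands higher in adult cells. The median difference of 1.81 includes 156 domains at the floor of 1 neonatal read. Among the 359 listed domains above 1 read at both stages, the authors' deposited table had 293 higher and 66 lower in adult cells. Their median difference was 0.959. The H3K4me3 regions of the listed domains had a median of 1.31 times the domain width, so part of the reads can lie outside the domain. The median H3K4me3 count per region was 162 adult and 30 neonatal reads. Neonatal H3K4me3 has an input library of its own in the series, and the part of that in the difference was not tested. H3K27me3 was listed for 103 domains, and by the authors' deposited table all of them were higher in adult cells. As a share of all 656 domains that is 15.7%, near the 13.4% of all neonatal islands, of which 0.921% were lower. For 102 of these the neonatal value was the floor of 1 read, and the median was 27 adult reads, so this rests on few reads. H3K9me3 was listed for 438 domains, of which the authors' deposited table had 138 higher and 300 lower in adult cells, or 21.0% and 45.7% of all 656, against 17.4% and 26.6% of all neonatal islands. Counting listed regions alone, the authors' deposited table had 68.5% of the domains and 60.5% of the neonatal islands lower in adult H3K9me3. The H3K9me3 medians were 20 adult and 46 neonatal reads.

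In the tables against mES cells, the neonatal and adult comparisons share the mES libraries, and their values are given side by side. For H3K79me2, neonatal cells were higher at 385 and lower at 210 of 595 listed domains in the authors' deposited table, or 58.7% and 32.0% of all 656, against 34.9% and 29.1% of all neonatal islands, with a median difference of 0.75. Adult cells were higher at 265 and lower at 351 of 616 in the authors' deposited table, or 40.4% and 53.5% of all 656, against 29.3% and 37.0%, with a median of -0.54. Counting listed regions alone, the authors' deposited table had 64.7% of the domains and 54.6% of the neonatal islands higher in neonatal cells. In adult cells those listed shares were 43.0% and 44.2%, so there the domains were near all neonatal islands. The next values restate in part how the domains were sorted, since the mES library is on both sides. Over the domains with no mES H3K79me2 island, all 78 listed were higher at both stages in the authors' deposited tables, with medians of 8.63 in neonatal and 7.53 in adult cells. The neonatal difference there was 11.01 beside a neonatal log2 value of 11.56 at chr14:63817200-63891599. At chr1:167593800-167640399 it was 9.846 beside 10.4. Values at an mES floor were not counted, so the size of these medians is not read as a measured fold. Where mES cover was 90% or more, neonatal cells were higher at 67 and lower at 182 domains in the authors' deposited table. The authors' deposited table for adult cells had 17 higher and 258 lower there.

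For H3K4me3 the stages differed in direction from mES cells. Neonatal cells were higher at 151 and lower at 375 domains in the authors' deposited table, or 23.0% and 57.2% of all 656, against 17.5% and 33.1% of all neonatal islands. The authors' deposited table had adult cells higher at 358 and lower at 139, or 54.6% and 21.2%, against 26.7% and 25.9%. Counting listed regions alone, neonatal cells were lower at 71.3% of the domains and 65.4% of the neonatal islands. Adult cells were higher at 72.0% and 50.7% of them. Between the stages, 156 of 515 listed domains stood at the floor of 1 neonatal read, 68 of them with a neonatal H3K4me3 island. The part of that floor in the neonatal direction against mES cells was not tested. For H3K27me3, the authors' deposited table had neonatal cells lower at all 544 listed domains, or 82.9% of all 656, against 26.7% of all neonatal islands. Among listed regions alone, the authors' deposited table had just 4.96% of all neonatal islands higher in neonatal cells. For adult cells the authors' deposited table had 580 lower and 29 higher, or 88.4% and 4.42%, against 37.7% and 8.83%. Counting listed regions alone, the authors' deposited table had 95.2% of the domains and 81.0% of the neonatal islands lower in adult cells. Only 157 domains held an mES H3K27me3 island, so most of these differences lie where no island was called in mES cells. The neonatal and adult differences lay the same step apart at chr1:74055600-74115799 (-6.426 and -7.706) and chr1:167593800-167640399 (-5.376 and -6.655). The same step recurred at many other domains, among them chr12:72931400-73036799 (-4.396 and -5.676) and chr13:12162200-12198599 (-4.685 and -5.965). It was absent at some, such as chr14:63817200-63891599 (-6.719 and -2.192) and chr14:35266800-35299999 (-2.645 and 1.567). Floor values at both stages would give such a step, but they were not counted in these tables. The size of these differences is therefore not read as a measured loss.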

How the data were processed

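The authors' files hold 11 samples, of which 8 are immunoprecipitated libraries and 3 are inputs. The submitters' processing notes name mm9, the aligner Bowtie 0.12.8, DiffBind 1.2.0 for the tables, and the callers MACS 1.4.2 and SICER 1.1. The authors deposited SICER islands and MACS regions per library, each with a score, used here only to describe, rank or filter within a list. The 12 deposited tables hold the log2 of normalised reads per library, a fold and p-values with a false discovery rate. The deposited description calls them pairwise, at default settings, and says that mES reads of 3 marks were moved to mm9 from another build. Only 10 of the tables were used, the 8 columns of mES values in the 12 tables were not, and 8 score columns of the mES lists were also not used. Unlogged table values divided by the lowest of their column were whole for 100% of values at a tolerance of 0.01, and were taken as reads with a floor of 1. The deposited fold was neonatal minus adult and was turned round. The sources used here do not give total depth, and table reads are not library sizes.

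Overlaps needed 1 bp. A domain took the table region with the greatest overlap. With 1 library per group no test was made. Scripts ran in Python 3.11.15 with pandas 2.3.3 and scipy 1.17.1 and were tested on simulated intervals and reads. The regions named were the 8 widest, the 6 with least adult cover, the 6 largest and 6 smallest table differences, and 4 each with the most or no neonatal H3K4me3 and with no mES H3K79me2, leaving out chromosome 18. The domains, lists and rules were chosen with earlier results of these data known. Widths, score ceiling, island lists, MACS regions and read scalings were varied.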

Additional observations from a re-analysis of the deposited data

How the results depend on the processing

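Several values moved with the setting. Taking islands from 15000 bp gave 1218 domains, of which 88.7% were covered to 50% or more in adult cells and 72.7% touched by neonatal H3K4me3. Taking them from 25000 bp gave 370 domains, and joining islands over gaps of up to 1000 bp gave 1127. The adult cover fell by most with other lists: 70.3% of domains with the neonatal number of top-scoring adult islands, 60.7% with the neonatal length, and 0.0% with MACS regions. In all 3 settings the adult share was below the mES share, which was 73.8% with all islands and 29.9% with MACS regions. With the neonatal number of widest mES islands the mES share was 72.4%. The mES list was not shortened by score as the adult list was, so these shares are not of like lists. The cause was not tested. MACS regions put neonatal H3K4me3 in 63.3% and end placement at 87.8%. Neonatal H3K4me3 was in 69.7% by midpoint, and the adult list was in 81.2%. End placement was 53.6% in the outer 10% at each end and 83.6% for the highest-scoring island.

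The share of listed domains lower in adult H3K79me2 in the authors' deposited table was 96.8%. It was 99.5% with folds centred on the table median, 99.7% for regions at most 1.2 times as wide as the domain, and 52.6% for reads without the factors, so this direction depends on the scaling. Without the factors 0 domains were 4-fold or more lower and 3 were 4-fold or more higher, against 9 and 1 with them. The H3K4me3 share, 12.8% lower in the authors' deposited table, was 18.4% above 1 read at both stages and 5.26% without the factors. The read scalings, the region width and the widest mES islands (72.4%) were chosen after seeing the data. An alternative with the top-scoring mES islands was not run, since mES scores were not used. No paired analysis was possible because the labels give no replicate numbers and each mark has 1 library per stage.

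The limits are the single library per mark and stage, the heart region named for adult cells alone, and adult and neonatal lists of very different length. Total depth is unknown, so a missing island means not detected at that depth. Regions at the floor of 1 read can hold an island.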
